A study of Xenopus laevis with 18 samples.

Results

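Between the early and the late tailbud of the frog Xenopus laevis, 9.41% of the gene models tested differed consistently by about 2-fold or more, with 621 higher and 703 lower in the late pair, a balance that depended on the scaling. The comparison set the libraries of stages 23 and 26 (early tailbud, n = 2) against those of stages 30 and 33 (late tailbud, n = 2), which are 4 of the 18 whole-embryo libraries of the series, 1 for each Nieuwkoop-Faber stage. All embryos were of the J strain, an inbred laboratory line, were untreated, were raised in dilute saline with gentamycin and were snap frozen at the stage wanted. Members of the comparison were the gene models at 5 TPM or more in at least 2 of the 4 libraries: 14075 of 31355 models passed, once a pair of models that appear at very high level in some libraries and at 0 in their neighbours had been set aside. TPM is a model's share of all transcripts, scaled to a total of 1000000; here each library was rescaled to that total without spike-ins and without the pair.

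The tailbud stages follow closure of the neural tube. In this period the embryo lengthens, the tail bud extends the trunk, muscle segments continue to form, the heart begins to beat, and eye, kidney, blood and gut tissues differentiate, while programmes that patterned the gastrula and neurula are turned down. In a whole embryo a transcript can gain share because its cells become more numerous or because each cell holds more of it, and these cannot be told apart in such samples. Selection for the poly(A) tail adds the length of the tail as a further influence on the values.

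Each stage has 1 library, so the 2 stages of a pair are different time points and not replicates; spread within a pair contains developmental change as well as error. The models are known by the authors' identifiers only, and 0 of 31357 matched the reference table of gene names, so the gene content of the groups below is not described and no marker gene was used to check the labelled stage. Depth is unknown from TPM. Models at 1 TPM or more numbered 20245, 20860, 20938 and 21205 at stages 23, 26, 30 and 33, and models listed at 0 numbered 5788, 4815, 4491 and 3275. Spike-in RNAs, synthetic transcripts added to the samples, made up 3.61%, 2.24%, 3.12% and 1.49% of the total in the same order, and 1 of them, ERCC-00074, held 37.7% to 55.7% of the spike-in total, most at stage 30.

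A model was called a riser when both late libraries lay above both early ones and the mean difference on the log2(TPM + 1) scale was at least 1, and a faller when the reverse held. This rule, which is a description and not a test, gave 621 risers, 4.41% of the 14075 models, and 703 fallers, 4.99%, together 9.41%. Rises were the larger: 195 risers and 82 fallers differed by 2 or more on the log2 scale, and 72 risers and 15 fallers by 3 or more. The median difference was 1.53 among risers and -1.23 among fallers. Whatever the size, both late libraries stood above both early ones for 19.8% of the models and below them for 45.7%, and the median over all tested models was -0.19, so the bulk of models lay slightly lower in the late pair.

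This shift depended on the scaling, and with it the balance between risers and fallers. Median-of-ratios scaling, which centres the libraries on models above 0 in each, moved the median to -0.04 and gave 794 risers and 455 fallers. Quantile normalization gave 765 and 472, and scaling to the spike-in total 822 and 254, with a median of 0.16. Under the rescaling to 1000000 and all 5 other scalings tried, 501 risers (80.7%) and 234 fallers (33.3%) were called each time. Leaving out stage 23 brought the fallers to 342 and the risers to 418. The riser closest to the threshold stood at 29.6, 43.8, 52.1 and 102.1 TPM over the 4 stages, and the nearest model outside it stood at 227.1, 316.2, 472.6 and 609.1 TPM. On the other side the nearest faller stood at 18.6, 18.0, 8.65 and 8.65 TPM, and the nearest model outside at 27.8, 15.6, 8.42 and 11.8 TPM.

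Under the same rule 1 of 37 spike-ins was called, 2.70%, against 9.41% of the gene models. Spike-in values were expressed relative to all spike-in TPM in the same library. The spike-in called was ERCC-00165, with 8.68, 7.46, 2.68 and 2.04 TPM at stages 23, 26, 30 and 33. ERCC-00044 had a difference of -1.02 and was not called. Relative to the spike-in total, its stage 33 value lay just above its stage 23 value. The count of spike-ins called thus rests on a near tie. The late minus early differences of the 37 spike-ins had an SD of 0.41 and ran from -1.38 to 0.53, whereas those of the models had an SD of 0.69. After both sets were centred on their medians, 1022 models (7.26%) lay above the highest spike-in and 409 (2.91%) below the lowest. These included all 621 risers and 403 of the 703 fallers. With each library centred on its own median instead, an alternative chosen after seeing the data, the spike-ins ran from -0.75 to 1.16. Outside that range lay 616 of the 621 risers and all 703 fallers. The rule asks for a difference of at least 1 either way, so these counts of members are partly or wholly built in. They are a description. The ends of a range of 37 spike-ins rest on few values, so part of a far larger set would lie outside it with equal scatter. How large that part would be was not tested. The 1022 models above and the 409 below are therefore no measure of change beyond scatter.

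**Figure D1:**
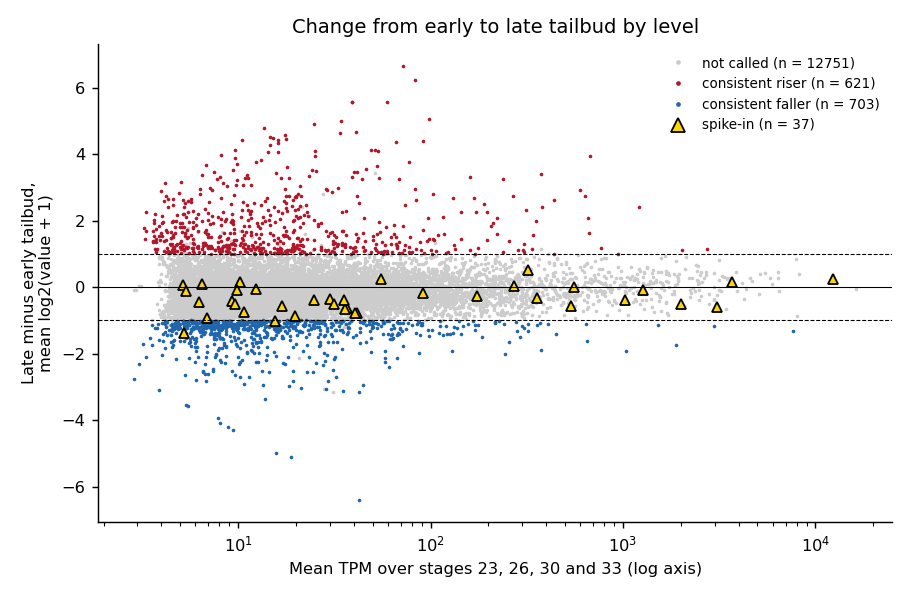
Late minus early tailbud difference of mean log2(value + 1), vertical axis, against mean TPM over the 4 tailbud libraries, horizontal log axis; each dot is 1 of 14075 gene models (values in TPM) and each triangle 1 of 37 spike-ins (values per 1000000 of the spike-in total). All 621 risers lie above the highest spike-in (0.53), as the threshold of 1 requires, and 72 of them past 3. On the lower side 1 spike-in falls under -1 with both late libraries below both early ones.

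The spike-in differences varied with level. The 25 spike-ins with a mean under 100 TPM had a median difference of -0.46, and the 12 at 100 TPM or more one of -0.17. Gene models showed the same order, with a median of -0.20 for the 12669 models under 100 TPM and -0.05 for the 1406 above. Centring the libraries within 10 bins of level, an alternative chosen after seeing the data, gave 857 risers and 377 fallers. On the scale of the gene models the spike-ins had a median of -0.72 and 7 of 37 were called lower. The part of these spike-in differences in the calls was not tested.

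In limma, a linear model that moderates each model's variance with the rest of the table, 1023 of 14075 models passed at an adjusted p under 0.05 (7.27%), 321 higher (2.28%) and 702 lower (4.99%) in the late pair. The fit took the spread between neighbouring stages from the 8 neurula and tailbud libraries in 4 pairs (4 residual degrees of freedom). Of the 621 risers 272 passed (43.8%), and of the 703 fallers 424 (60.3%). The 321 higher calls were risers in 84.7% of cases, the 702 lower calls fallers in 60.4%. Limma used the same late minus early differences as the rule, so this overlap is partly built in and is no check of the rule. The balance depended on the scaling here too. It was 403 higher and 362 lower when scaled by median of ratios, and 179 and 36 under spike-in scaling. Quantile normalization was done over the 8 libraries of the fit, not the 4 of the rule, and gave 563 and 658. Lower calls stayed the more frequent there. Leaving out stage 23, 26, 30 or 33 left a lone library in 1 group, assumed to vary like the rest, and 3 residual degrees of freedom. The median log2 difference was then -0.15, -0.18, -0.24 and -0.15. Fewer models passed each time, and very few without stage 23 or stage 33. A named model that lost its call there was therefore like most others. Why fewer models passed was not tested. Fitted over all 18 libraries, 331 models were higher and 107 lower.

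The largest rises came from models near 0 in the early tailbud. XeXenL6RMv10010422m was listed at 0 in each of the 16 libraries up to stage 26. It then reached 40.4 TPM at stage 30 and 248 TPM at stage 33 (limma adjusted p = 0.00947). Only the late pair added spread to its fit, so this p-value rests on a single pair and on the moderated variance. XeXenL6RMv10042249m stood at 0.43, 1.24, 68.0 and 265 TPM at stages 23, 26, 30 and 33. Both models passed from at most 1.24 TPM to at least 40.4 within the step from stage 26 to stage 30 and were higher still at stage 33. In log2 terms XeXenL6RMv10042249m gained 6.24 ± 0.58 (SE; limma adjusted p = 0.00912), and it was at most 0.40 TPM at stage 20 and before. Without stage 30 or stage 33 neither model passed the filter, so neither was fitted. Without stage 23 neither call held, with rises of 6.67 for XeXenL6RMv10010422m and 5.92 for XeXenL6RMv10042249m. Very few models of any kind passed in that fit. Over the alternatives that kept all 4 tailbud libraries, the highest limma adjusted p was 0.0386 for the former and 0.0344 for the latter. The lowest, 9.28e-18 and 5.66e-17, came from spike-in scaling alone, under which 215 models passed in all.

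The largest falls were mostly of another kind, in models listed at 0 in both late libraries, in most cases after scattered appearances earlier. Of the 15 fallers past 3 on the log2 scale, 10 were at 0 at stages 30 and 33. The largest fall, in XeXenL6RMv10050361m (-6.42), did not pass limma (adjusted p = 0.0932). The pair named next had the largest falls among fallers averaging 10 TPM or more in the early pair that passed. XeXenL6RMv10024179m stood at 18.0 and 14.3 TPM at stages 23 and 26 and was listed at 0 at stages 30 and 33 (limma adjusted p = 0.00947). It had also been at 0 at each stage from 14 to 20, after 16.2 TPM at stage 12. XeXenL6RMv10002888m stood at 22.9 and 8.79 TPM in the early tailbud with 0 listed for the remaining 16 libraries (limma adjusted p = 0.0140). Both were thus above 0 in the early tailbud between stretches at 0, a course that differs from a decline over neighbouring stages. Only the early pair added spread to their fits on 8 libraries, so these p-values rest on a single pair and on the moderated variance. All 11 fallers at 0 in both late libraries were at 0 in at least 8 of the 14 libraries before stage 23, and 8 of them had reached 5 TPM in some earlier library. Their early tailbud means were 5.76 to 84.9 TPM, and an exact 0 in such a table can be a failed estimate. Without stage 23 or stage 26 neither named model passed the filter, so neither was fitted. Without stage 33 the call was lost for both named models, and XeXenL6RMv10002888m also lost it without stage 30. In both fits the falls stayed at -4.09 for XeXenL6RMv10024179m and -3.93 for XeXenL6RMv10002888m. Over all 18 libraries XeXenL6RMv10024179m had a limma adjusted p of 0.326. Over the alternatives that kept all 4 tailbud libraries, the adjusted p ran from 0.000135 to 0.326 and from 6.94e-07 to 0.0641.

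Steady declines were smaller on the log2 scale. A pair of models, chosen after their values were seen as the called fallers above 0 in all 4 tailbud libraries with the largest fall, had their high level in the gastrula and neurula. XeXenL6RMv10013285m stood at 628 TPM at stage 14 and 225 TPM at stage 20, and at 35.5, 16.0, 3.45 and 0.30 TPM over the tailbud stages. The log2 difference was -3.37 ± 0.63 (SE; limma adjusted p = 0.0250). XeXenL6RMv10011199m reached 1561 TPM at stage 12, stood at 685 TPM at stage 20, and at 116, 38.7, 12.6 and 3.24 TPM over the tailbud stages. Its fall was -3.16 ± 0.59 (SE; limma adjusted p = 0.0250). Both were lower at every step from stage 18 on, and the late libraries lay below the early ones without overlap. Without stage 33 neither passed, with falls of -2.49 and -2.32. XeXenL6RMv10011199m did not pass without stage 23 either, with a fall of -2.38. Very few models of any kind passed in these fits. Over all 18 libraries the limma adjusted p was 0.109 and 0.314.

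Most of the change fell between stages 26 and 30. The largest step led to stage 30 in 375 of the 621 risers, to stage 26 in 201 and to stage 33 in 45, and among the 703 fallers in 562, 50 and 91. The median riser went from 3.66 TPM at stage 23 to 7.51, 18.5 and 24.4 TPM, and the median faller from 20.4 to 15.9, 6.59 and 5.62 TPM. Values increased at all 3 steps in 439 risers (70.7%) and decreased at all 3 in 413 fallers (58.7%), where 9.37% and 20.7% of all tested models did so. The rule sets both late libraries apart from both early ones, so the largest step and the monotone order are partly built in, and these counts are a description. The median first step was 0.75 among risers and -0.34 among fallers, beside -0.02 over all tested models.

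At single steps the spike-ins scattered about as widely as the gene models. After centring, 970 models (6.89%) moved more than 2-fold from stage 26 to stage 30, with 6 of 37 spike-ins (16.2%), and the SD of the step was 0.61 for models and 0.65 for spike-ins. From stage 23 to 26 it was 457 models (3.25%) and 1 spike-in (2.70%), and from stage 30 to 33 it was 449 models (3.19%) and 2 spike-ins (5.41%). The busiest step was the same for models and spike-ins. Without stage 33, which sets stage 30 alone against the early pair, 11 spike-ins met the rule, without stage 23 it was 4, and without stages 26 and 30 in turn it was 0 and 1.

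**Figure D2:**
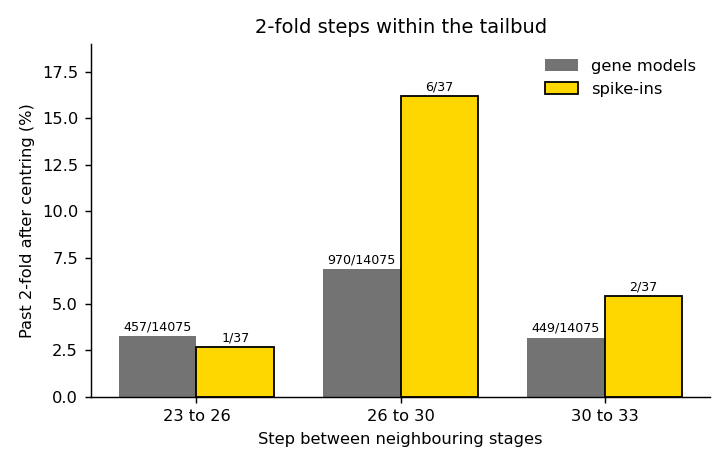
Percent of gene models (grey) and spike-ins (yellow) that moved more than 2-fold between neighbouring tailbud stages, each after centring on its median, with counts above the bars and 1 library per stage. The step from stage 26 to 30 has the most models past 2-fold, 970, and also the most spike-ins, 6 of 37.

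The called models carried a modest part of the RNA. Risers held 1.18% and 1.87% of the gene-model TPM at stages 23 and 26 and 4.31% and 5.42% at stages 30 and 33. Fallers held 5.80%, 4.81%, 2.21% and 1.96% over the same stages. The curves crossed between stages 26 and 30. Members were picked on these 4 libraries, whose shares are a description; among the 14 earlier libraries, which the rule did not use, risers held from 0.38% at stage 14 to 1.47% at stage 7, and fallers from 4.83% at stage 7 to 24.3% at stage 6. At stage 6 most of that share was 1 model, XeXenL6RMv10008034m, at 20.5% of the TPM.

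A few abundant models made up a large part of these sums. The 10 most abundant risers held 33.5% of the risers' late TPM and the 10 most abundant fallers 47.4% of the fallers' early TPM; 80 risers and 65 fallers averaged 100 TPM or more in their higher pair. Without those 10 models in each direction, risers held 0.97% of the TPM in the early and 3.24% in the late pair, and fallers 2.79% and 1.08%. XeXenL6RMv10042505m showed the largest gain in TPM among risers, with 1596, 1815, 3906 and 3676 TPM at stages 23, 26, 30 and 33. It rose by 1.15 ± 0.22 in log2 units (SE; limma adjusted p = 0.0258) and had stood at 589 TPM at stage 20. XeXenL6RMv10032820m stood at 278, 495, 1587 and 2469 TPM, a rise of 2.41 ± 0.36 (limma adjusted p = 0.0154), after 4.69 TPM at stage 14 and 53.7 at stage 20. Both were higher at each step from stage 14 to stage 30, and at stage 33 the former was slightly lower and the latter higher again.

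Among fallers the largest losses in TPM were in models that were already abundant in the neurula. XeXenL6RMv10008034m stood at 11709, 10056, 3565 and 5204 TPM, a log2 difference of -1.33 ± 0.27 (limma adjusted p = 0.0286), and was at 12629 TPM at stage 20. Both late libraries lay below both early ones, but stage 33 was higher than stage 30. Before the neurula, XeXenL6RMv10008034m swung widely between neighbouring libraries, with 204991 (stage 6), 35767 (stage 6.5) and 14925 TPM (stage 7). Later values were 82461 (stage 10) and 15853 TPM (stage 14). Whether its tailbud fall exceeds such swings was not tested. XeXenL6RMv10040861m stood at 4050, 4177, 2148 and 1552 TPM, a fall of -1.17 ± 0.20 (limma adjusted p = 0.0190), after a plateau between 3873 and 4510 TPM from stage 14 to stage 20. Of these 4 abundant models none kept its call without stage 23, at adjusted p = 0.233 for XeXenL6RMv10042505m, 0.149 for XeXenL6RMv10032820m, 0.300 for XeXenL6RMv10008034m and 0.194 for XeXenL6RMv10040861m. XeXenL6RMv10042505m and XeXenL6RMv10008034m also lost it without stage 26 (adjusted p = 0.0603 and 0.0966), stage 30 (0.0823 and 0.0989) or stage 33 (0.122 and 0.0927). XeXenL6RMv10032820m lost it without stage 33 (0.110), and XeXenL6RMv10040861m without stage 26 (0.0707) or stage 33 (0.105). Under spike-in scaling 3 of the 4 lost it, at adjusted p = 0.468 for XeXenL6RMv10042505m and 0.99988 for both fallers. Over the alternatives the adjusted p ran from 0.0176 to 0.468, from 0.00171 to 0.149, from 0.0112 to 0.99988 and from 0.0117 to 0.99988 in the order named.

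**Figure D3:**
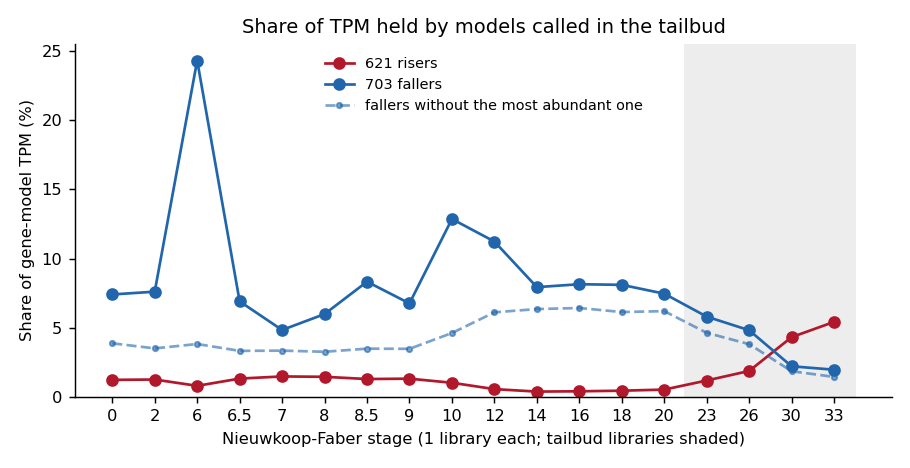
Percent of the gene-model TPM held by the 621 risers (red), the 703 fallers (blue) and the fallers without their most abundant model (dashed) in each of the 18 libraries, 1 per stage, with the tailbud libraries shaded. Risers stay at or under 1.47% up to stage 20 and reach 5.42% at stage 33, while fallers go from 7.46% at stage 20 to 1.96%.

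The 14 earlier libraries were not used by the rule and show where the members came from. Of the 621 risers, 211 (34.0%) were under 1 TPM in every library up to stage 20, against 313 of all 14075 tested models (2.22%) and 5 fallers (0.711%). The median early value, over the 5 libraries before the blastula, was under 0.5 TPM for 374 risers (60.2%) and 363 fallers (51.6%), against 2473 of all tested models (17.6%). Conversely, 191 risers (30.8%) and 242 fallers (34.4%) had an early median of at least 5 TPM, against 73.6% overall. Models with an early median under 0.5 TPM thus made up a larger share of both sets than of all tested models. That difference was not tested. The class is called absent at the start, which refers to values after poly(A) selection and not to presence in the embryo. Of the 2473 tested models absent at the start, 15.1% were risers and 14.7% fallers; of the 10365 present from the start, 1.84% and 2.33%. The filter asks for 5 TPM in any 2 of the 4 tailbud libraries, so a model under 1 TPM up to stage 20 could enter through the late pair alone, which favours risers. Of the 211 such risers, 115 were under 5 TPM in both early libraries. Among models at 5 TPM or more in all 4 libraries, a restriction added after seeing the data, 35 of 255 risers (13.7%) had been under 1 TPM up to stage 20, beside 61 of 11300 models (0.54%) and 0 of 352 fallers.

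Onset followed the same division. It was taken as the first stage at 1 TPM or more that was held in each later library. A model expressed early that later dipped under 1 TPM has a late onset, so the onset is not always a first appearance. The onset was stage 18 for 31 risers (4.99%), stage 20 for 74 (11.9%), stage 23 for 179 (28.8%), stage 26 for 93 (15.0%) and stage 30 for 36 (5.80%). For 146 (23.5%) it was stage 0. Over all tested models the shares were 2.04%, 2.91%, 2.28%, 0.732%, 0.298% and 71.9% in the same order. Stages 0 and 20 to 33 carry a column suffix, rr, that the labels do not explain. From stage 18 to stage 20 the models listed at 0 went from 9320 to 6489. The part of this in the onsets and in the levels up to stage 20 was not tested. For fallers the onset was stage 12 for 116 (16.5%), stage 14 for 76 (10.8%), stage 10 for 66 (9.39%) and stage 0 for 239 (34.0%). All tested models had 4.81%, 5.04%, 2.05% and 71.9% there. Another 15 fallers (2.13%) had their onset only at stage 33 and 28 (3.98%) had none, beside 0.22% and 0.313% of all tested models. Risers that were absent at the start went in the median from 0.45 TPM (stage 20) through 2.52 TPM (stage 23) to 24.99 TPM (stage 33). Fallers absent at the start went from 5.71 TPM (stage 12) to 25.03 TPM (stage 20) and back to 4.79 TPM (stage 33). Risers of this class thus appeared mostly within the tailbud period, and fallers mostly between gastrula and neurula. The rule used stages 23 to 33, so a late onset among risers is partly built in.

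Risers that were present from the start had a dip between the early embryo and the tailbud. Their median was 42.7 TPM (stage 8), 13.1 (stage 12), 6.66 (stage 14) and 5.04 (stage 20), and then 7.30, 12.4, 23.0 and 26.4 TPM at stages 23, 26, 30 and 33. In 127 of the 191 (66.5%) the lowest of the 18 libraries was a gastrula or neurula library, against 37.5% of the 10365 tested models present from the start. At stage 33, 96 of the 191 (50.3%) stood above their own value at stage 2, against 27.7%. Risers are high in the late tailbud by the rule, so both shares are partly built in. All tested models present from the start also came down after the blastula, from a median of 42.1 TPM at stage 8 to 16.9 at stage 14, but then stayed between 16.0 and 20.4 TPM. Fallers present from the start showed no such dip, with median levels of 40.2, 33.6 and 33.0 TPM at stages 8, 14 and 20 and of 7.75 TPM at stage 33.

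**Figure D4:**
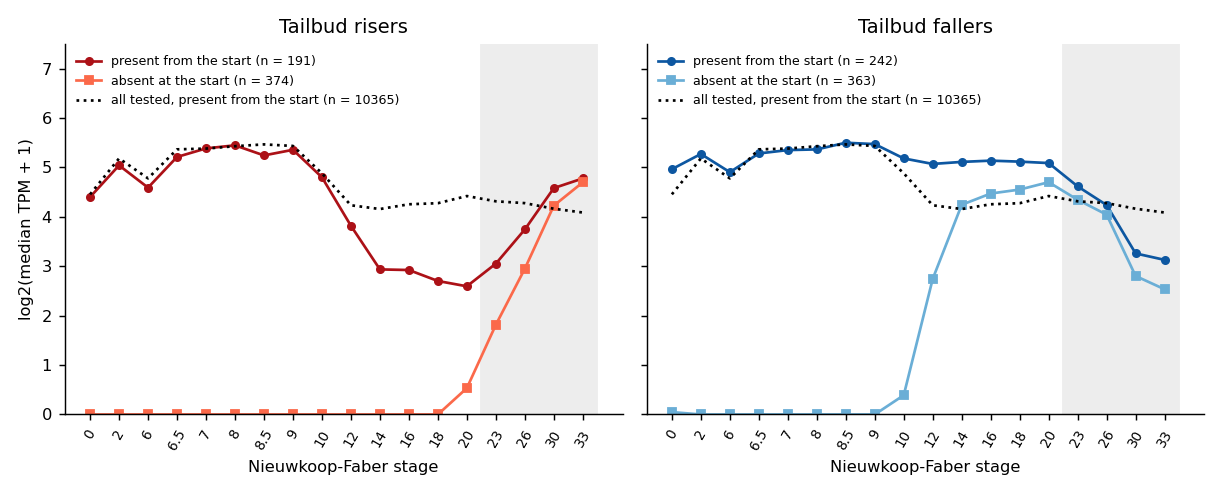
Median TPM, as log2(median TPM + 1), at each of the 18 stages for risers (left) and fallers (right), divided into models with an early median of at least 5 TPM (present from the start) and under 0.5 TPM (absent at the start), beside all tested models present from the start (dotted). Risers present from the start dip to 5.04 TPM at stage 20 and return to 26.4 TPM at stage 33; fallers stand at 33.0 and 25.03 TPM at stage 20 and at 7.75 and 4.79 TPM at stage 33.

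The highest of all 18 libraries was a late tailbud library in 475 risers (76.5%), against 15.0% of all tested models, and a library before the gastrula in 127 (20.5%), against 51.2%. Fallers were highest in a neurula library in 289 cases (41.1%), in an early tailbud library in 172 (24.5%), in a gastrula library in 98 (13.9%) and earlier in 144 (20.5%), against 15.8%, 11%, 7% and 51.2% of all tested models. In 89 fallers (12.7%) the late tailbud mean was under 0.1 of the neurula mean, against 96 of all tested models (0.682%). The choice of members fixes part of these counts, since a faller is low in the late tailbud by the rule and could not be highest there.

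The change from the early neurula (stages 14 and 16) to the late neurula (stages 18 and 20) shares no library with the tailbud comparison. Under the same rule 1005 of the 14075 models were higher in the late neurula (7.14%) and 72 lower (0.512%). Of the 621 risers 46 were higher in the late neurula (7.41%) and 8 lower (1.29%), and of the 703 fallers 102 were higher (14.5%) and 16 lower (2.28%). The share of risers that had already gone up in the neurula was near that of all tested models, and the share of fallers was 14.5% against 7.14%. The median neurula difference was 0.09 among risers, 0.17 among fallers and 0.18 among all tested models, so the fallers' median was close to that of all tested models. Stage 20 carries the column suffix rr, as do the 4 tailbud libraries, and stages 14, 16 and 18 do not; the labels do not explain it, and without stage 20 the number that went up and then down was 61 instead of 102. Without stage 23 it was 52.

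The models below had the largest opposite changes in the neurula and the tailbud. XeXenL6RMv10038134m stood at 19.3, 7.85, 1.67 and 4.67 TPM at stages 14 to 20 and at 10.3, 10.4, 46.4 and 37.0 TPM over the tailbud stages, after 510 TPM at stage 0. It rose by 1.90 ± 0.44 in log2 units over the tailbud (SE; limma adjusted p = 0.0396). XeXenL6RMv10028141m was listed at 0 up to stage 16, reached 0.68 and 7.30 TPM by stages 18 and 20, and then stood at 22.1, 14.8, 2.67 and 1.34 TPM over the tailbud stages. Its tailbud fall was -2.71 ± 0.66 (limma adjusted p = 0.0467). Without stage 23 or stage 26 it failed the filter and was not fitted. The former thus came back from a low in the late neurula, and the latter was a pulse with its highest value at stage 23. Each call was narrow: leaving out stage 23, 26, 30 or 33 gave adjusted p-values of 0.279, 0.120, 0.144 and 0.156 for XeXenL6RMv10038134m, and leaving out stage 30 or 33 gave 0.110 and 0.238 for XeXenL6RMv10028141m; the ranges over the alternatives were 0.0172 to 0.279 and 0.00373 to 0.238. XeXenL6RMv10028778m, at 10.9, 0, 19.1 and 18.5 TPM, and XeXenL6RMv10018241m, at 27.8, 22.7, 9.72 and 2.67 TPM, met the rule in both periods but did not pass limma in the tailbud (adjusted p = 0.181 and 0.0803). The former was listed at 0 at stages 18 and 26, with 10.2 and 5.69 TPM on either side of stage 18 and 10.9 and 19.1 TPM on either side of stage 26.

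**Figure D5:**
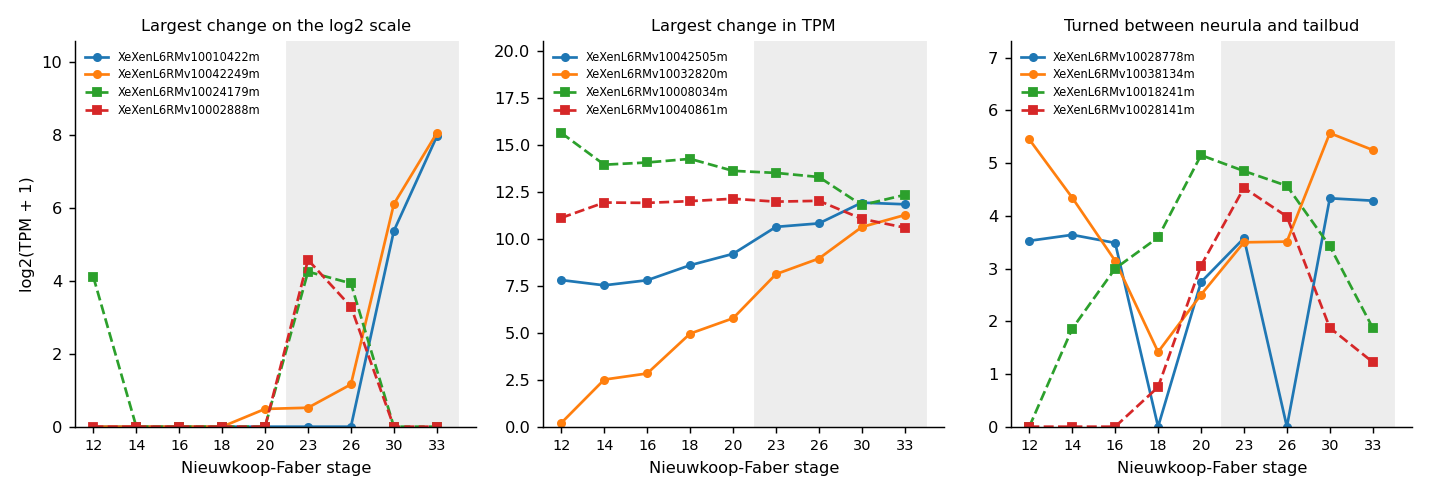
log2(TPM + 1) from stage 12 to stage 33 of the 12 models named by rule, 1 library per stage, with risers as circles and solid lines, fallers as squares and dashed lines, and the tailbud libraries shaded. Left, the largest changes on the log2 scale among models that passed limma, where both fallers appear at stages 23 and 26 between values of 0. Middle, the largest changes in TPM, led by XeXenL6RMv10008034m, from 11709 TPM at stage 23 to 5204 at stage 33. Right, the models that turned between neurula and tailbud.

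Calls were spread over all levels of expression. Risers made up 4.94% of the models with a tailbud mean under 10 TPM, 4.41% from 10 to 20 TPM, 3.63% from 20 to 50 TPM, 4.89% from 50 to 100 TPM, 4.14% from 100 to 500 TPM and 3.14% at 500 TPM or more, with no steady order. Fallers made up 6.17%, 4.95%, 4.29%, 4.34%, 3.58% and 2.20% of the same bins. The median gap between the 2 stages of a pair was 0.23 on the log2 scale under 10 TPM and 0.23 at 500 TPM or more, the same at both ends to this precision. The share of fallers was lowest in the most abundant models, which number 318.

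Risers had another riser at a consecutive identifier number more often than other tested models did. Of the 308 risers whose number had a tested model directly before or after it, 76 (24.7%) had another riser there, against 282 of 6613 other tested models (4.26%). Among fallers it was 65 of 346 (18.8%), against 340 of 6575 (5.17%). Neighbours of opposite direction were no more frequent among risers, at 5.52%, than among other tested models, at 5.87%. The longest unbroken run held 6 risers. The sources used here do not say what the order of the numbers stands for, and reads shared between near-identical models were not tested.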

How the data were processed

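Poly(A)+ RNA of whole Xenopus laevis embryos was sequenced, 1 library per stage. The deposited values are TPM per gene model; the submitters' processing notes name CASAVA 1.8.2, Trimmomatic, Bowtie and RSEM, while settings and build were not given in the sources used here. TPM keeps no depth, so no count test or counting interval was possible. Spike-ins and a pair of on/off models were removed and each library rescaled to 1000000. Models at 5 TPM or more in at least 2 of the 4 tailbud libraries were tested on log2(TPM + 1), which understates folds of low models, with limma 3.58.1 (R 4.3.3, mean-variance trend, Benjamini-Hochberg adjustment) on 8 libraries in 4 pairs of stages. Neighbouring stages stand in for replicates, so p-values measure the spread between stages, which may be technical, and the labels do not say whether embryos came from 1 clutch or several. Both the rule and limma were run on simulated data with independent normal noise and known shifts. Such data do not show the error rate in these libraries. Up to 2 risers and 2 fallers were named for the largest log2 change (called, and averaging 10 TPM or more in their higher pair), the largest change in TPM, and the largest opposite changes in neurula and tailbud. The members, lists and history classes were chosen with earlier results of these data known.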

Additional observations from a re-analysis of the deposited data

Results flagged for a closer look

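The pair of models left out of the comparison carried signal in a tailbud library. XeXenL6RMv10031603m stood at 37594.9 TPM at stage 30 as deposited and was listed at 0 at stages 23, 26 and 33. XeXenL6RMv10023270m stood at 797.53 TPM at stage 30 and was likewise listed at 0 in the other 3 tailbud libraries. Neither enters any value of the comparison, and no other library of the same stage exists here to compare them with.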

How the results depend on the processing

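No paired analysis was possible because each stage has 1 library and the labels carry no replicate numbers. Of 110 alternative counts and shares, 55 stayed within 1.5 times or 1 SD. For the others the cause was not tested. All 230 fits of the 14 named models kept their direction, and 55 lost the call. XeXenL6RMv10028778m and XeXenL6RMv10018241m, which had no call to lose, supplied 17 of these fits each. Fits in which a model failed the filter were not counted. Each named model has both late libraries on the same side of both early ones by the rule. Its direction could therefore hardly reverse, and the kept directions are no check. The 621 risers became 1112 with a filter of 1 TPM, 255 with 5 TPM in all 4 libraries, 1190 with no filter, 369 with a pseudocount of 5, and 1471 and 195 at thresholds of 0.5 and 2. The 703 fallers became 455 under median-of-ratios and 254 under spike-in scaling, 352 with 5 TPM in all 4, 299 with a pseudocount of 5, 3223 and 82 at thresholds of 0.5 and 2, and 377 centred by level. The limma count of 321 higher became 179 (spike-in scaling), 563 (quantile), 614 (1 TPM), 127 (5 TPM in all 4), 697 (no filter), 127 and 589 (pseudocounts of 0.1 and 5) and 927 (linear in stage). The 702 lower became 362 (median-of-ratios), 36 (spike-in), 419 (5 TPM in all 4), 461 (no filter), 442 (4 libraries), 107 (18 libraries), 1540 (linear) and 429 (no trend). Spike-ins called went from 1 to 7 on the gene-model scale and 2 with a filter of 1 TPM. Without the 10 most abundant members, shares of TPM went from 1.52% to 0.968% and 4.86% to 3.24% (risers, early and late) and from 5.30% to 2.79% and 2.08% to 1.08% (fallers). Models that fell then rose went from 8 to 78 at a threshold of 0.5 and 18 under median-of-ratios scaling, and those that rose then fell from 102 to 675 and 60. Leaving out 1 library at a time gave 418 to 871 risers, 342 to 943 fallers, 1 to 343 higher and 0 to 250 lower in limma (1549 at an unadjusted p under 0.05 without stage 23), 0 to 11 spike-ins, 6 to 20 that fell then rose and 52 to 151 that rose then fell. Centring by level, the spike-in and turned-model leave-outs, median-of-ratios for turned models and the removal of abundant members were chosen after seeing the data. Depth is unknown, which limits the low models most.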
